A study of Mus musculus with 48 samples.

Results

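The 10 genes described here encode apolipoproteins and the assembly of very-low-density lipoprotein (VLDL) in liver: Apob, Mttp, Apoe, Apoa1, Apoa2, Apoa4, Apoa5, Apoc1, Apoc2 and Apoc3. They were chosen by name, and all 10 matched a row of the count table, which lists 55414 genes. All 10 also passed the filter on low counts that left 15414 genes for testing. The study sequenced liver RNA from 48 mice of the FCG model, which crosses gonad type with sex chromosomes in 4 genotypes, to separate effects of the gonads from effects of the sex chromosomes. In this model the Y chromosome lacks the testis-determining gene Sry (written Y-) and an autosomal Sry transgene (SryTg) gives testes, so that XX and XY mice of either gonad can be compared. Every mouse was on the C57BL/6 background, started a high-fat diet (HFD) with 60% of calories from fat at 15 to 17 weeks of age, and gave 1 library. Groups are named by chromosomes, gonad of origin (Ov, ovaries, or Te, testes) and gonadal status, with 6 mice in each.

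The XX Ov Intact mice had genotype XX, the XY Ov Intact mice XY-, the XX Te Intact mice XX;SryTg and the XY Te Intact mice XY-;SryTg, and these 4 groups kept their gonads. The XX Ov GDX, XY Ov GDX, XX Te GDX and XY Te GDX mice had the same 4 genotypes and lost their gonads (gonadectomy, GDX) at 75 days of age. By the sample labels, intact mice received the HFD for 11 weeks and GDX mice for 15 weeks. GDX, cohort, the length of the diet and age at its end thus cannot be told apart. The study's methods give other lengths for both cohorts, also longer after GDX, and the labels were followed here. Every mouse was fed the HFD, so none served as a chow control here. In the testis groups the transgene is present in XX and XY mice alike.

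VLDL carries triglyceride out of hepatocytes. Its scaffold is apolipoprotein B (Apob), which the microsomal triglyceride transfer protein (Mttp) loads with lipid as the chain enters the endoplasmic reticulum. The exchangeable apolipoproteins then move between particles: Apoe is a ligand for receptors that clear remnants, Apoa1 and Apoa2 are the main proteins of high-density lipoprotein (HDL), Apoc2 activates lipoprotein lipase, Apoc1 and Apoc3 slow clearance and lipolysis, and Apoa5 favours lipolysis. Apoa4 is best known from intestine and is also made by liver when triglyceride accumulates. Apoa1, Apoc3, Apoa4 and Apoa5 lie together in 1 cluster, and Apoe, Apoc1, Apoc4 and Apoc2 in another.

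Each library held 13071874 to 20045141 reads counted on genes, and the 10 genes together took 2.98 to 4.16% of them. Levels are given as CPM, the count of a gene as a share of the library size after TMM scaling. Levels of Xist, Ddx3y and Apoc4 and the sums of cell type markers are instead CPM of library totals, without TMM scaling. Xist was at least 123 CPM in XX and at most 8.36 CPM in XY libraries, and Ddx3y was at most 3.82 CPM in XX and at least 46.0 CPM in XY libraries, so no label was contradicted. The 7 hepatocyte markers in the table (Alb among them) summed to 65494 to 129649.6 CPM in intact and 77712 to 116914 CPM in GDX libraries. Libraries of intact and GDX mice differed in make-up. Reads outside annotated genes were 3.47 to 6.20% of all reads in intact and 8.52 to 11.3% in GDX libraries. A length index, the median deviation from the mean log2 CPM over 1119 genes shorter than 1000 nucleotides minus that over 570 genes of 8000 nucleotides or more (the 10 genes left out), ran from -0.685 to 1.96 in intact and from -0.902 to -0.416 in GDX libraries. It exceeded 1 in 7 intact libraries, 3 XX Ov, 3 XY Ov and 1 XY Te, and results are given without them where that matters. This setting was chosen after seeing the data and drops 3 of the 6 mice of each Ov Intact group. Among intact mice Apob and Apoe fell with the index (r = -0.90 and -0.80). A call lost in this setting thus cannot tell the gonads, library make-up and the smaller number of mice apart.

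Per kilobase of the longest annotated transcript, the mean level over the 48 mice was highest for Apoc1 (11759 ± 8308 CPM per kb, SD), followed by Apoa2 (10267 ± 5774), Apoe (7492 ± 1502) and Apoa1 (4421 ± 1026). Apoc3 (1601 ± 800.2) and Apob (584 ± 233) came next, before Apoa5 (192 ± 33.9), Mttp (93.9 ± 16.6) and Apoa4 (85.2 ± 88.6). The ranges of 1 SD of Apoc1, Apoa2 and Apoe overlap, and that of Apoa1 overlaps those of Apoc1 and Apoa2. Those of Apoc3 and Apob overlap at their ends, and that of Apoa4 overlaps those of Mttp and Apoa5. This order pools groups that differ. In all 4 GDX groups Apoe stood first, before Apoa2 and Apoc1 (in XX Ov GDX 8834, 6882 and 5568 CPM per kb). Apoc2 was far below all others, at 3.49 ± 0.875 CPM per kb, from 18 to 67 reads per library. Exons of Apoc2 overlap those of Apoc4 on the same strand, and Apoc4 had 165 to 862 CPM (without TMM scaling), so reads of the shared stretch may have been left uncounted or assigned elsewhere, and the level of Apoc2 is uncertain. Apoa4 varied most between groups, with group means of log2 CPM spanning 3.13, and Apoa1 (0.40) and Apoa5 (0.39) among the least.

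**Figure D1:**
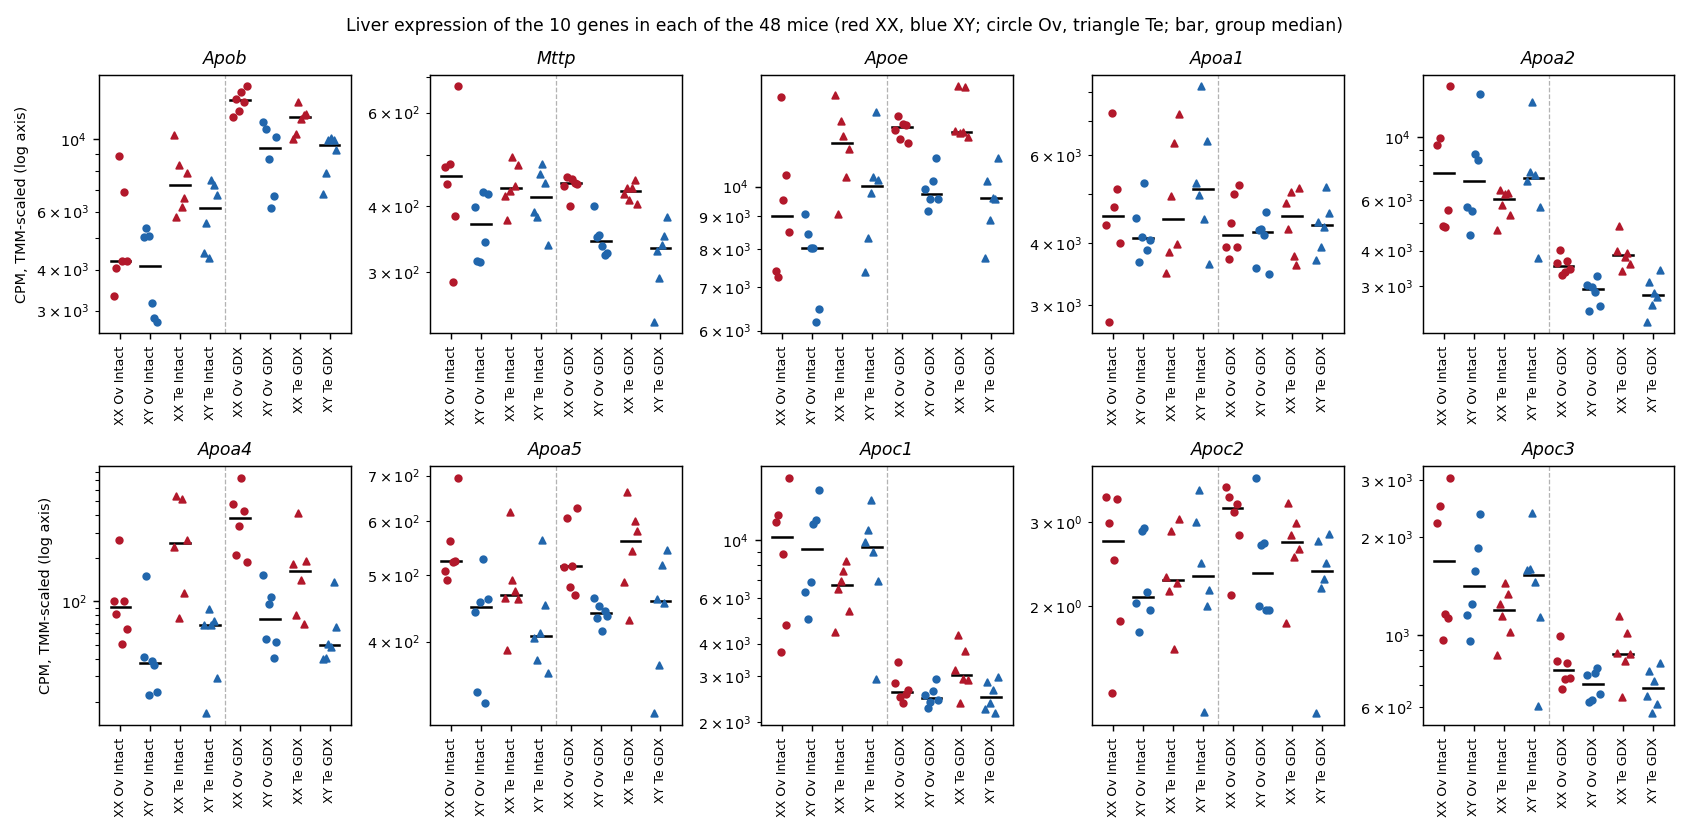
Expression of each gene in each mouse, in CPM on a log axis with a range of its own per gene, in the 8 groups; points are mice (red XX, blue XY, circles Ov, triangles Te), bars are group medians and the dashed line separates intact from GDX. Apob lies higher and Apoa2, Apoc1 and Apoc3 lie lower in GDX mice, and Apoa4 lies higher in XX than in XY mice of the same gonad and status.

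The 5 genes that were higher in XX than in XY mice are shown by the 250 bases before their annotated start, since they are the ones that moved together with the chromosomes. The sequences are from RefSeq on GRCm38.p6, given 5′ to 3′ on the strand of the gene. Promoters of 8 of the 10 genes were in the table used, and those of Apoc1 and Apoc3 were not used here. For Apoe, which has 3 annotated starts, the one farthest upstream is shown, and for Apoa5, which has 2, the upstream one. The search covered 5 motifs on both strands, and matches are in capitals: TATAAA (the TATA box), CCAAT (the CCAAT box), AGGTCA (a core of nuclear receptor sites), CAAAGTC (part of the sequence bound by HNF4α) and TATTTAC (part of a forkhead site). No matches overlapped in the windows printed.
Apoa4, chr9:46240594-46240843 (plus strand): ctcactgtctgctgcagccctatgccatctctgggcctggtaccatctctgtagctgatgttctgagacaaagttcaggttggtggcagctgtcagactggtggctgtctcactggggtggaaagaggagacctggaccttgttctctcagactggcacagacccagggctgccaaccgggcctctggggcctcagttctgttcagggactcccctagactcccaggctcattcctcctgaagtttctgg
Apoa5, chr9:46268358-46268607 (plus strand): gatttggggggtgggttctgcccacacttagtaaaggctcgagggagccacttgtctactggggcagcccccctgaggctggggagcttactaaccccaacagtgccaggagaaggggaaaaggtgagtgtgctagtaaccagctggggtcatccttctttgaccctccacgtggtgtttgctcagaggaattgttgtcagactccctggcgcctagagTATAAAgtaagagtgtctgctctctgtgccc
Apob, chr12:7977427-7977676 (plus strand): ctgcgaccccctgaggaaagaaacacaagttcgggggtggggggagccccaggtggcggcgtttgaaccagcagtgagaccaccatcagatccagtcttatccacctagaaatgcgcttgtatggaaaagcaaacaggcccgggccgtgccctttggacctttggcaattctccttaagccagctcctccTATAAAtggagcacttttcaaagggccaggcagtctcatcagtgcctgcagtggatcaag
Apoe, chr7:19699189-19699438 (minus strand): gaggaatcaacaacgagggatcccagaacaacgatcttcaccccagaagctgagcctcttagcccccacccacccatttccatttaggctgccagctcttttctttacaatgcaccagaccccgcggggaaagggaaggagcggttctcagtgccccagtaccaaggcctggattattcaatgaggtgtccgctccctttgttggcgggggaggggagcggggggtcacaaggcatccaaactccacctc
Mttp, chr3:138143419-138143668 (minus strand): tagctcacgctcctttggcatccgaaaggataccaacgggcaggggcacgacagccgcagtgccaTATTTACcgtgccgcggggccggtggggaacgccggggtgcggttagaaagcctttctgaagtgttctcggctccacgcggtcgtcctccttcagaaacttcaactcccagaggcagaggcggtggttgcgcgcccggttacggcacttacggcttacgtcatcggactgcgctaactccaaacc
Apob and Apoa5 each hold 1 TATAAA, which 12.4% of the 32851 promoter windows of this length hold, and Mttp holds 1 TATTTAC, found in 2.73%. No match was found in the windows of Apoa4 and Apoe, while the window of the second annotated start of Apoe holds TATAAA on both strands. CCAAT (held by 33.8% of all windows), AGGTCA (14%) and CAAAGTC (3.84%) matched none of the 5. No motif of those searched was thus held by all 5 windows.

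The comparisons were contrasts of 1 model with a mean for each group (edgeR's quasi-likelihood test, Benjamini-Hochberg adjustment over the 15414 genes), and a gene was called where the adjusted p was under 0.05. The chromosomal effect (all 24 XX against all 24 XY mice) was called for 5 of the 10 genes, Apoa4, Apob, Apoe, Apoa5 and Mttp, each higher in XX, where 36.7% of all tested genes were called and 21.9% were higher. The gonadal effect (12 Ov Intact against 12 Te Intact mice) was called for Apob and Apoe, both lower with ovaries, beside 25.3% of all genes (11.3% lower). After ovariectomy (Ov GDX against Ov Intact) Apob, Apoe and Apoa4 rose and Apoa2, Apoc1 and Apoc3 fell, and after castration (Te GDX against Te Intact) Apob rose and Apoa2, Apoc1, Apoc3 and Mttp fell. Of all genes tested, 69.4% were called after ovariectomy (36% higher and 33.4% lower) and 63.3% after castration (33.4% higher and 29.9% lower), beside 6 and 5 of the 10, so the count itself is near the background. With library totals the calls were 6 higher and 3 lower after ovariectomy and 3 and 3 after castration. With 1 surrogate variable, or without the 7 libraries of high length index, 1 higher and 3 lower calls were left after ovariectomy. The length offset gave 5 and 2 after ovariectomy and 2 and 2 after castration. The median log2 fold change of the 10 genes was 0.22 in the chromosomal effect, against 0.052 over all genes, and -0.012, -0.034 and -0.23 in the gonadal, ovariectomy and castration effects, against 0.038, 0.060 and 0.069.

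Scaling by library totals in place of TMM moved the median of all genes from 0.060 to 0.27 in the ovariectomy effect, from 0.069 to 0.27 in the castration effect, from 0.052 to -0.047 in the chromosomal effect and from 0.083 to -0.10 in its part within GDX mice. Of all genes called in the chromosomal effect, 3382 were higher and 2275 lower with TMM, against 1208 and 3081 with totals. The split changed likewise from 2171 and 1736 to 2145 and 1009 in the gonadal effect, from 5554 and 5141 to 7355 and 3769 in the ovariectomy effect, and from 5147 and 4612 to 7296 and 3211 in the castration effect. Against these shifts the 5 genes higher in XX kept their direction and their call with totals, Apoa4 at 1.71 and the others between 0.17 and 0.30.

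Apob, the structural protein of VLDL, was higher after GDX in all 4 pairs of groups by median. In XX Ov mice it was 3330.0 to 8843 CPM (median 4240.0) before and 11669.9 to 14457 CPM (median 13093) after GDX, and in XY Ov mice 2777 to 5348 CPM (median 4099.6) and 6172 to 11223 CPM (median 9409). In neither pair did the groups overlap. In testis-bearing mice the ranges met, at 5775 to 10240.2 CPM (median 7239) and 10021 to 12950.4 CPM (median 11663) in XX and 4332 to 7469.7 CPM (median 6139.6) and 6769 to 10028 CPM (median 9558) in XY mice. Apob was 2.34-fold higher after ovariectomy (log2 fold change 1.23 ± 0.14 (SE), adjusted p = 6.19e-10) and 1.51-fold higher after castration (log2 fold change 0.60 ± 0.14 (SE), adjusted p = 0.000262). The difference between both effects was itself called (log2 fold change -0.63 ± 0.19 (SE), adjusted p = 0.0424), where 5.6% of all genes were, but it lost its call in 23 of the 48 fits that left out 1 mouse (adjusted p 0.00664 to 0.0747) and without the 7 libraries of high length index (-0.32 ± 0.18, adjusted p = 0.376). In a bulk library, fewer cells of a type and less RNA per cell cannot be told apart, here or in any result that follows.

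In intact mice Apob was lower with ovaries than with testes, at 4652 ± 1779 CPM (SD, n = 12) and 6736 ± 1664 CPM (SD, n = 12) (log2 fold change -0.54 ± 0.14 (SE), adjusted p = 0.00367). The call was lost without the 7 libraries of high length index (-0.23 ± 0.14, adjusted p = 0.3), 6 of which are from mice with ovaries. Genes of 8000 nucleotides or more, as Apob is, had a median of -0.14 in this effect. In XX mice Apob was 9312 ± 3468 CPM (SD, n = 24) and in XY mice 6974 ± 2579.6 CPM (SD, n = 24) (log2 fold change 0.40 ± 0.10 (SE), adjusted p = 0.000847). Within GDX mice the difference was 0.45 ± 0.14 (adjusted p = 0.00875), with no overlap between XX and XY mice in the Ov groups and overlap at the ends of the ranges in the Te groups. With library totals it was 0.27 ± 0.16, adjusted p = 0.215 and not called. Within intact mice it was 0.36 ± 0.14 and was not called (adjusted p = 0.0898). Of all genes, 34.3% were called within GDX mice (19.5% higher in XX) and 10.7% within intact mice (4.27% higher in XX), beside 5 and 3 of the 10, all higher in XX.

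Mttp, whose product lipidates apolipoprotein B, was 401 to 453 CPM (median 441) in XX Ov GDX and 324 to 401 CPM (median 343) in XY Ov GDX mice, ranges that met at their ends. In XX Te GDX mice it was 403 to 448 CPM (median 427) and in XY Te GDX mice 242 to 381 CPM (median 333), without overlap. The 4 intact groups all overlapped, with medians of 456 (XX Ov), 370.1 (XY Ov), 432 (XX Te) and 416 CPM (XY Te). Mttp was 1.21-fold higher in XX than in XY mice (log2 fold change 0.28 ± 0.060 (SE), adjusted p = 0.000245), and within GDX mice the difference was 0.36 ± 0.085 (adjusted p = 0.00072). It fell after castration (log2 fold change -0.21 ± 0.085 (SE), adjusted p = 0.0327), a call that 5 of the 48 fits without 1 mouse lost, and after ovariectomy the value was not past the test (log2 fold change -0.073, 95% interval -0.24 to 0.10, adjusted p = 0.451). With the length offset Mttp was called lower after both ovariectomy and castration, and with library totals it was called higher after ovariectomy. With the length trend taken out, its mean was 491 CPM in XX Ov Intact and 414 CPM in XX Ov GDX mice. In XY Ov mice it was 396 and 331 CPM. The fall after castration was not called with library totals (-0.0018 ± 0.064, adjusted p = 0.983) or 1 surrogate variable (-0.12 ± 0.079, adjusted p = 0.188). By pair it was -0.046 ± 0.12, adjusted p = 0.786 in XX and -0.37 ± 0.12, adjusted p = 0.00919 in XY mice (edgeR). Of all genes, 37.1% and 56.7% were called in these pairs.

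Apoe, the remnant ligand, was higher in XX than in XY mice, without overlap after GDX. XX Ov GDX mice had 11655 to 12855 CPM (median 12336) and XY Ov GDX mice 9174 to 11056 CPM (median 9755), and XX Te GDX mice had 11936 to 14267 CPM (median 12147) and XY Te GDX mice 7766 to 11075 CPM (median 9586). Neither pair overlapped. Among intact mice the ranges were 7251 to 13734 CPM (median 9022) in XX Ov, 6194 to 9069 CPM (median 8052) in XY Ov, 9087 to 13842 CPM (median 11686) in XX Te and 7394 to 13039 CPM (median 10006) in XY Te, so that XX and XY mice of the same gonad overlapped. Over all mice Apoe was 1.24-fold higher in XX (log2 fold change 0.31 ± 0.063 (SE), adjusted p = 7.46e-05), with 0.37 ± 0.089 in GDX (adjusted p = 0.00103) and 0.26 ± 0.089 in intact mice (adjusted p = 0.047, lost in 32 of the 48 fits without 1 mouse). With library totals neither call held (0.19 ± 0.11, adjusted p = 0.208 in GDX and 0.24 ± 0.11, adjusted p = 0.204 in intact mice), nor with the length offset (0.30 ± 0.13, adjusted p = 0.0663 and 0.30 ± 0.13, adjusted p = 0.116). Apoe was lower with ovaries than with testes in intact mice (log2 fold change -0.32 ± 0.089 (SE), adjusted p = 0.00738) and rose after ovariectomy (log2 fold change 0.37 ± 0.089 (SE), adjusted p = 0.000368). Both calls were lost without the 7 libraries of high length index (-0.12 ± 0.10, adjusted p = 0.448 and 0.15 ± 0.10, adjusted p = 0.218). The castration effect was not called (log2 fold change 0.050, 95% interval -0.13 to 0.23, adjusted p = 0.636).

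Apoa4 showed the widest differences between groups of the set, and was higher in XX than in XY mice. XX Ov GDX mice had 189 to 729.9 CPM (median 382), all above the XY Ov GDX mice at 40.2 to 152 CPM (median 74.9). The other pairs overlapped. XX Te Intact mice had 76.4 to 539.8 CPM (median 254) and XY Te Intact mice 16.7 to 88.6 CPM (median 68.4), XX Ov Intact mice 50.3 to 269.8 CPM (median 91.7) and XY Ov Intact mice 22.4 to 150.4 CPM (median 37.2), and XX Te GDX mice 70.2 to 415 CPM (median 162) and XY Te GDX mice 39.9 to 136 CPM (median 49.4). By group mean the order was XX Ov GDX, XX Te Intact, XX Te GDX, XX Ov Intact, XY Ov GDX, XY Te GDX, XY Te Intact and XY Ov Intact, so that every XX group stood above every XY group, but each neighbour in this order overlapped with the next. The level was 245 ± 185 CPM (SD, n = 24) in XX and 64.2 ± 39.1 CPM (SD, n = 24) in XY mice, a 3.48-fold difference (log2 fold change 1.80 ± 0.25 (SE), adjusted p = 1.42e-07).

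The difference in Apoa4 had nearly the same size in intact mice (1.73 ± 0.36, adjusted p = 0.000573) and in GDX mice (1.87 ± 0.36, adjusted p = 4.84e-05), and their difference was not past the test, though its 95% interval was wide (log2 fold change 0.14, 95% interval -0.85 to 1.14, adjusted p = 0.919). By gonad and status, XX exceeded XY by 2.35 ± 0.52, adjusted p = 0.00641 in intact Te, 2.24 ± 0.51, adjusted p = 0.00116 in GDX Ov and 1.5 ± 0.50, adjusted p = 0.0282 in GDX Te mice, while the value in intact Ov mice was 1.10 ± 0.50, adjusted p = 0.191 (edgeR). In these pairs 2.1%, 19.1%, 19.4% and 7.79% of all genes were called. Apoa4 was 2.39-fold higher after ovariectomy (log2 fold change 1.26 ± 0.35 (SE), adjusted p = 0.00181), a call lost without the 7 libraries of high length index (0.84 ± 0.47, adjusted p = 0.142). It was 1.82 ± 0.51, adjusted p = 0.00255 in XX and 0.69 ± 0.50, adjusted p = 0.231 in XY mice, where 55.1% and 59.4% of all genes were called. After castration the value was -0.28 (95% interval -0.98 to 0.43, adjusted p = 0.497), and the difference from the ovariectomy effect lay just outside the threshold (log2 fold change -1.53 ± 0.50 (SE), adjusted p = 0.0555), and inside it without 1 XX Te Intact mouse (-1.61 ± 0.49, adjusted p = 0.0452). The gonadal effect was not called (log2 fold change -0.77, 95% interval -1.48 to -0.061, adjusted p = 0.0966). Exons of Apoa4 overlap Gm10680 on the opposite strand, and whether the counting used strand is not given in the sources used here.

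Markers of some other cells also differed between XX and XY mice, where 21.9% of all genes were higher and 14.8% lower in XX. Of 7 hepatocyte markers 2 were higher and 0 lower. Of 8 stellate cell markers 1 was higher and 1 lower, and of 7 sinusoidal endothelial cell markers 0 and 1. Of 8 Kupffer cell and macrophage markers 7 were lower in XX, and their summed level was 239.7 to 461 CPM in XX Ov GDX against 663 to 1268 CPM in XY Ov GDX mice and 165 to 396 against 464 to 1636 CPM in the Te GDX groups. In intact mice the sums were 306 to 773 and 745 to 1151 CPM in XX and XY Ov and 247 to 942 and 301 to 784 CPM in XX and XY Te mice. All 7 tested neutrophil markers were lower in XX as well, with sums of 1.80 to 32.4 CPM in XX Te Intact and 4.22 to 112 CPM in XY Te Intact mice, and of 0.919 to 2.82 and 6.04 to 68.3 CPM in XX and XY Ov GDX mice. Macrophages also make Apoe. Other markers were higher in XX mice. Of 4 tested adipocyte markers 3 were higher and 1, Fabp4 (-1.02 ± 0.17, adjusted p = 2.7e-06), was lower, with a median of 1.03. The 3 higher were Cidec, Cidea and Car3, which liver also expresses, while Adipoq, Plin1, Lep and Retn did not pass the filter. In the gonadal and in the castration effect 3 of 4 were lower (all genes, 11.3% and 29.9%). The adipocyte sums were 1896 to 3077 and 1645 to 2625 CPM in XX and XY Ov GDX, 2318 to 3255 and 1332 to 2541 CPM in Te GDX mice. They were 987 to 2067 and 1072 to 2084 in Ov Intact and 2209 to 3967 and 1722 to 2969 CPM in Te Intact mice. Of 5 tested cholangiocyte markers 2 were higher in XX, Epcam (0.84 ± 0.17, adjusted p = 0.000123) and Spp1 (1.11 ± 0.20, adjusted p = 2.01e-05), and 0 lower. Of the intestinal epithelium markers, 2 of 8 had no read in any library and only Fabp2 passed the filter. It was higher in XX mice (0.47 ± 0.17, adjusted p = 0.0253) and fell after ovariectomy (-2.24 ± 0.25, adjusted p = 5.64e-10) and castration (-2.15 ± 0.25, adjusted p = 2.76e-09). These falls are not adjusted for transcript length, and whether the reads come from intestinal cells was not tested. The list summed to 147 to 1043 CPM in intact and 81.2 to 223 CPM in GDX mice. Exocrine pancreas markers summed to at most 0.124 CPM. The part of these other cells in the results on Apoa4, Apob, Apoe, Apoa5 and Mttp was not tested.

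Apoa5, which lies next to Apoa4 and favours lipolysis of triglyceride-rich particles, was 1.22-fold higher in XX mice (log2 fold change 0.29 ± 0.064 (SE), adjusted p = 0.000377). Its ranges were 467 to 627 CPM (median 515) in XX Ov GDX and 414 to 463 CPM (median 439.7) in XY Ov GDX mice, which did not overlap, and 429.8 to 662 CPM (median 562) and 314 to 545 CPM (median 458) in XX and XY Te GDX mice, which did. Intact mice ranged from 325 to 695 CPM with overlap between all groups. No difference by gonad or after ovariectomy passed the test (log2 fold change 0.089, 95% interval -0.094 to 0.27, adjusted p = 0.477, and log2 fold change 0.005, 95% interval -0.18 to 0.19, adjusted p = 0.964). The castration effect was not called either, with values of 0.084 to 0.17 over the fits without 1 mouse. With library totals Apoa5 was called higher after ovariectomy. The chromosomal difference is small, 0.27 ± 0.091 in intact mice (adjusted p = 0.0422), where 12 of the 48 fits without 1 mouse lost the call, and 0.30 ± 0.091 in GDX mice (adjusted p = 0.00881), where 3 did and where library totals ended the call (0.12 ± 0.084, adjusted p = 0.326). The call within intact mice was also lost with library totals (0.25 ± 0.084, adjusted p = 0.0579).

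Apoa1, the main protein of HDL, was not called in any comparison with TMM scaling and all 48 mice, without an offset or surrogate variable. It ranged over 2782 to 8224 CPM in the 48 mice, with medians between 4087 (XY Ov Intact) and 5133 CPM (XY Te Intact). The 95% intervals allow changes of at most moderate size in the chromosomal (log2 fold change 0.036, 95% interval -0.14 to 0.21, adjusted p = 0.786) and the ovariectomy effect (log2 fold change -0.088, 95% interval -0.34 to 0.16, adjusted p = 0.53), and the castration effect lay near the threshold (log2 fold change -0.25, 95% interval -0.50 to -0.0037, adjusted p = 0.0707). It was called lower after castration with 47 mice (-0.28 ± 0.13, adjusted p = 0.0493), with 1 surrogate variable (-0.32 ± 0.13, adjusted p = 0.0321) and in 4 of the 48 fits without 1 mouse. It was called higher after ovariectomy with the length offset (0.54 ± 0.16, adjusted p = 0.0032) and the length and GC offset (0.36 ± 0.14, adjusted p = 0.024). In the cluster of Apoa1, Apoc3, Apoa4 and Apoa5, the chromosomal effect was thus called for Apoa4 and Apoa5 and not for Apoa1 and Apoc3, a difference between genes that was not itself tested.

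**Figure D2:**
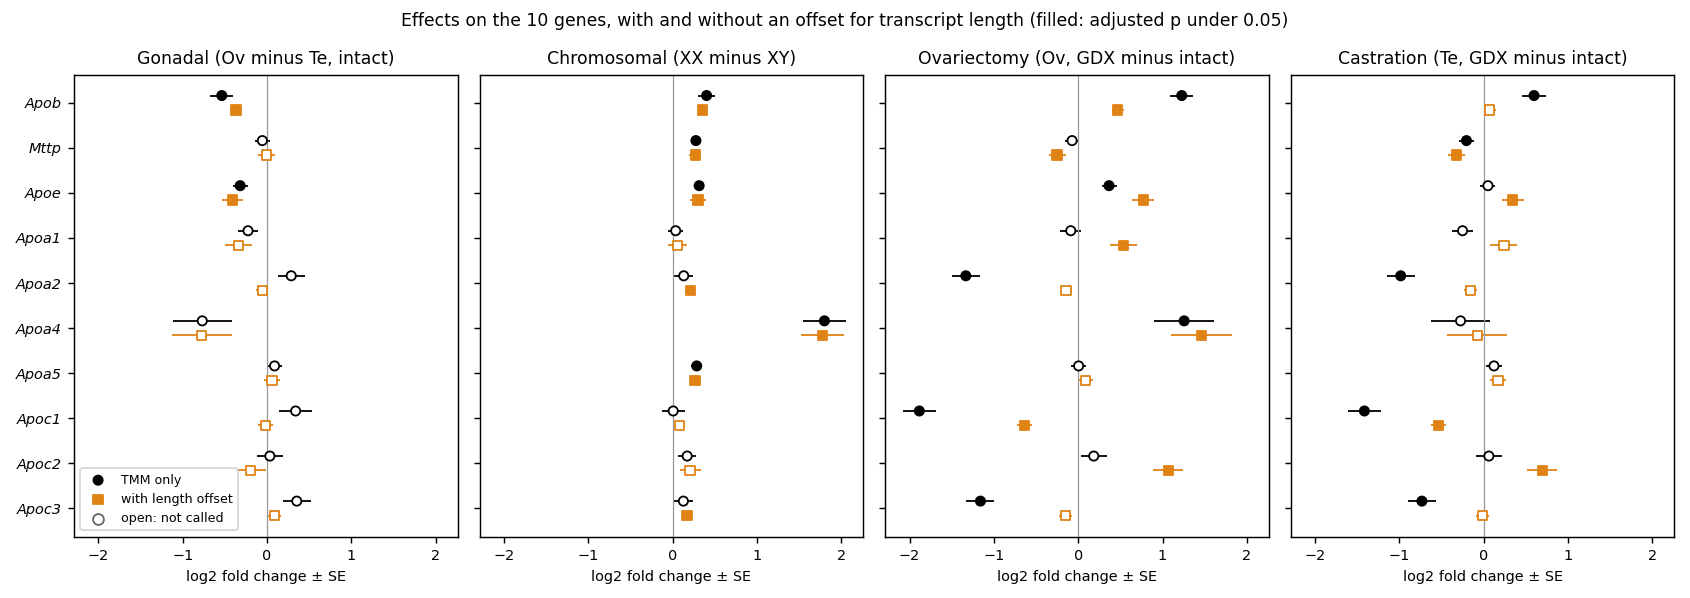
Log2 fold change of each gene in 4 effects, with bars of 1 SE; black circles are the model with TMM scaling, orange squares the model with an offset for transcript length, and filled symbols have an adjusted p under 0.05. The chromosomal effects of the 5 genes higher in XX move little with the offset (Apoa4 1.80 and 1.78) and those of Apoa2 (0.13 and 0.21) and Apoc3 (0.13 and 0.17) become called, while the changes of Apoa2, Apoc1, Apoc3 and Apob after GDX shrink toward 0.

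Apoa2, the second protein of HDL, was lower after GDX. In XX Ov mice it was 4843 to 15037 CPM (median 7467) before and 3290.4 to 4007 CPM (median 3530.4) after GDX, in XY Ov mice 4549.5 to 14179 CPM (median 6999.7) and 2452 to 3271 CPM (median 2924), and in XY Te mice 3779 to 13251 CPM (median 7183) and 2257 to 3411 CPM (median 2801), in each case without overlap. In XX Te mice, at 4724 to 6502 CPM (median 6058) and 3386 to 4861 CPM (median 3863), the ranges met. It fell 2.52-fold after ovariectomy (log2 fold change -1.33 ± 0.16 (SE), adjusted p = 3.67e-09) and 1.98-fold after castration (log2 fold change -0.99 ± 0.16 (SE), adjusted p = 2.2e-06). Neither the gonadal (log2 fold change 0.29, 95% interval -0.041 to 0.61, adjusted p = 0.182) nor the chromosomal effect (log2 fold change 0.13, 95% interval -0.10 to 0.36, adjusted p = 0.397) was called.

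Apoc1, which hinders receptor binding of remnants, fell most. XX Ov mice had 3709 to 17372 CPM (median 10294) before and 2358 to 3384 CPM (median 2598) after GDX, XY Ov mice 4983 to 15513 CPM (median 9210.1) and 2255 to 2921 CPM (median 2478), and XX Te mice 4427 to 8275 CPM (median 6725) and 2354 to 4298 CPM (median 3037), none with overlap. In XY Te mice, at 2915 to 14204 CPM (median 9437) and 2165 to 2984 CPM (median 2499.6), 1 intact mouse lay within the GDX range. The fall was 3.69-fold after ovariectomy (log2 fold change -1.88 ± 0.20 (SE), adjusted p = 1.85e-10) and 2.67-fold after castration (log2 fold change -1.42 ± 0.20 (SE), adjusted p = 7.9e-08). The coefficient of variation was 52.4% in XX Ov, 42.8% in XY Ov and 42.5% in XY Te Intact mice and lower in XX Te Intact mice. It was 9.23 to 21.3% in the GDX groups. The chromosomal effect was close to 0 (log2 fold change 0.0066, 95% interval -0.27 to 0.28, adjusted p = 0.978).

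Apoc3, which inhibits lipolysis and remnant uptake, followed the same course. It was 966 to 3048 CPM (median 1686) in XX Ov Intact and 679 to 988 CPM (median 776) in XX Ov GDX mice, and 957 to 2360.3 CPM (median 1411) and 621 to 789 CPM (median 705) in the XY Ov groups, of which the XY Ov groups did not overlap. In mice with testes it was 865 to 1439 CPM (median 1193) and 643 to 1146 CPM (median 875) in XX and 604 to 2378 CPM (median 1523) and 575 to 817 CPM (median 685) in XY mice, with overlap. It fell 2.23-fold after ovariectomy (log2 fold change -1.16 ± 0.17 (SE), adjusted p = 7.62e-08) and 1.66-fold after castration (log2 fold change -0.73 ± 0.16 (SE), adjusted p = 0.000182). In XX Te mice alone the change was -0.39 ± 0.23, adjusted p = 0.181 (edgeR) and was not called, while 37.1% of all genes were. Apoc2, the lipase activator, stayed between 1.20 and 3.72 CPM in all mice and was not called in any of the 4 effects, the nearest being the chromosomal one (log2 fold change 0.17, 95% interval -0.049 to 0.39, adjusted p = 0.229). With library totals Apoc2 was called higher after ovariectomy. At its 18 to 67 reads per library, smaller differences were not detectable.

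Several of the changes after GDX went with transcript length. The 3 genes that fell after both ovariectomy and castration, Apoc1 (487 nucleotides), Apoa2 (518) and Apoc3 (709), are the shortest of the 10, and Apob (13934), which rose after ovariectomy and castration, is the longest. Apoc2, of nearly the length of Apoc3 (722), did not change past the test, and Mttp (4272), the second longest, fell after castration, against the trend. By median, the other tested genes followed the same trend with length. Genes of 500 to 1000 nucleotides had a median log2 fold change of -0.97 after ovariectomy and -0.72 after castration, and genes of 8000 nucleotides or more 0.62 and 0.44. Among genes of at least 500 CPM on average, a level that 6 of the 10 genes exceed, the medians after ovariectomy were -1.69 for 17 genes under 1000 and 0.63 for 29 genes of 4000 nucleotides or more. The gonadal effect had a trend of this kind too. Its medians were 0.36 for genes under 500, 0.29 for 500 to 1000 and -0.14 for 8000 nucleotides or more. In the chromosomal effect the medians of all length bins lay between -0.084 and 0.075.

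**Figure D3:**
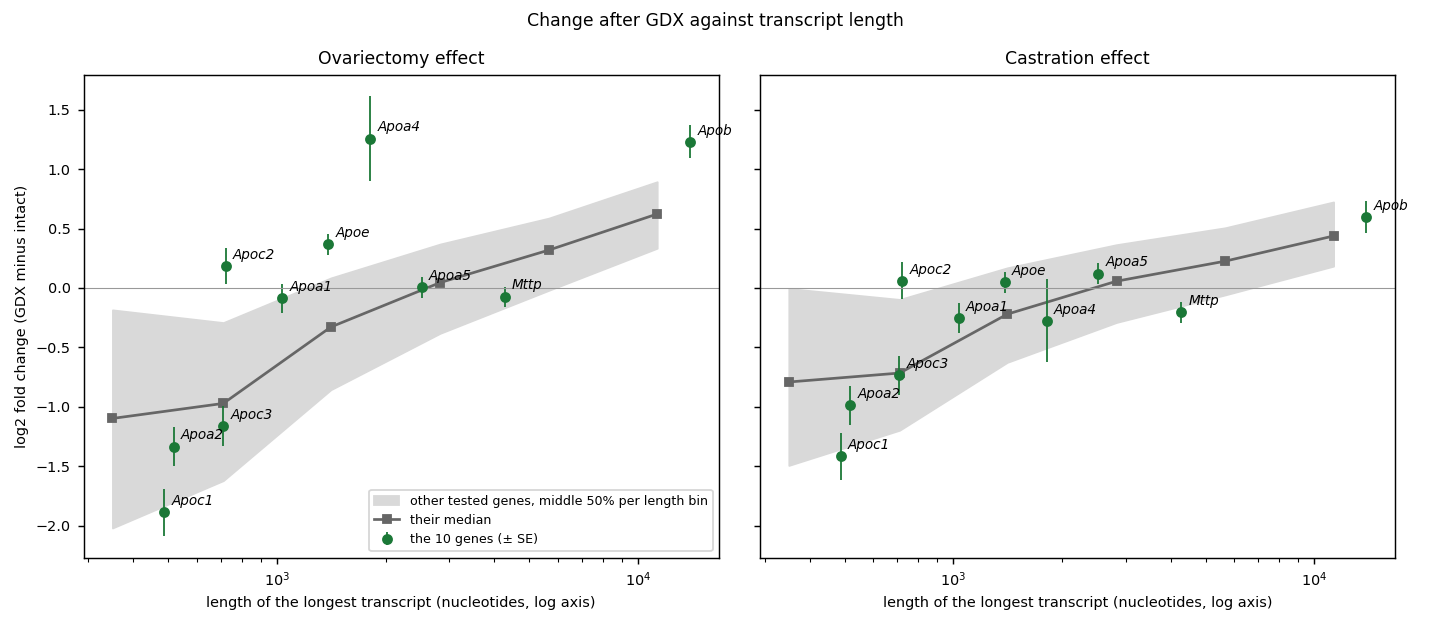
Log2 fold change after ovariectomy and castration against the length of the longest transcript (log axis); green points are the 10 genes with bars of 1 SE, the grey line is the median of the other tested genes per length bin and the band their middle 50%. Against the middle 50% of their own length bins, Apoc1, Apoa2 and Apoc3 lie inside in both panels, and Mttp lies below in both. By the same measure Apob lies above after ovariectomy and inside after castration. Apoa4 and Apoe lie above after ovariectomy, and Apoc2 in both panels. The drawn band joins the bins, so it can differ from the bin values, and it ends short of Apob.

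Within the intact mice, the same genes moved with the length index of the library. Over the 24 intact mice, as deviations from group means, log2 CPM of Apoc3 (r = 0.96 and rho = 0.96), Apoc1 (r = 0.96 and rho = 0.95) and Apoa2 (r = 0.93 and rho = 0.95) rose with the index and Apob (r = -0.90 and rho = -0.89) and Apoe (r = -0.80 and rho = -0.81) fell with it. The permutation p within groups, over 100000 permutations, was at the smallest value possible, 1e-05, for r of the first 4 and 6e-05 for Apoe (5e-05 and 0.00024 after Benjamini-Hochberg adjustment over the 20 relations). Without the 2 mice farthest from the median index, r was 0.94, 0.94, 0.92, -0.90 and -0.71. Apoa1, Apoa4, Apoa5, Apoc2 and Mttp had r between -0.19 and 0.36, with adjusted permutation p of 0.29 or more.

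In the 24 GDX mice, whose index spans a narrower range, the relation held for Apoa2 (r = 0.67 and rho = 0.72), Apoc3 (r = 0.55 and rho = 0.57), Apoc1 (r = 0.53 and rho = 0.53) and Apob (r = -0.73 and rho = -0.77), with adjusted permutation p of 0.00326, 0.014, 0.0146 and 0.00326 for r. Apoe turned to the opposite sign (r = 0.58 and rho = 0.64, adjusted permutation p = 0.0107). Without the 2 mice farthest from the median, r was 0.66 for Apoa2, 0.51 for Apoc3, 0.49 for Apoc1, -0.63 for Apob and 0.52 for Apoe. The levels and the index come from the same libraries, and what sets the index was not tested.

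**Figure D4:**
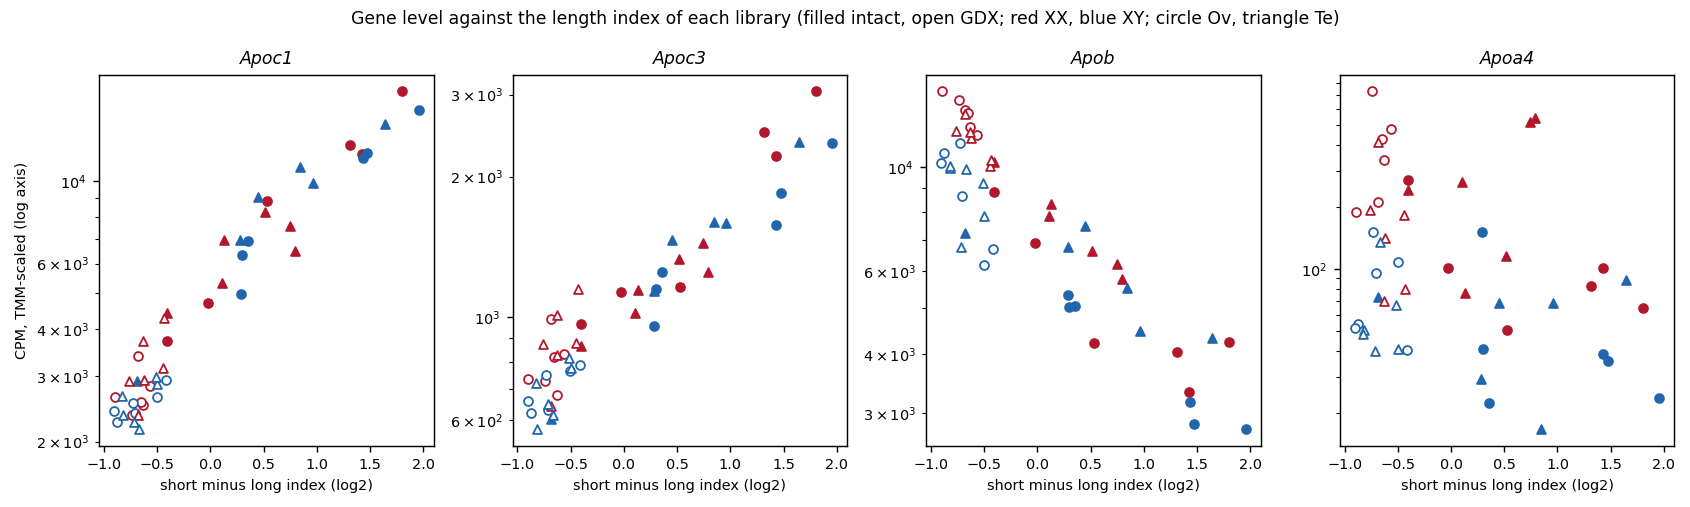
Level of 4 genes (CPM, log axis) against the length index of each library (log2); filled symbols are intact and open symbols GDX mice, red XX, blue XY, circles Ov, triangles Te. Apoc1 and Apoc3 rise and Apob falls along the index, from the GDX mice (index at most -0.42) to the intact mice with the highest index (1.96), and Apoa4 shows no such course among the intact mice.

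With an offset for transcript length fitted per mouse, the fall of Apoc1 shrank to -0.64 ± 0.087, adjusted p = 3.86e-08 after ovariectomy and -0.54 ± 0.087, adjusted p = 1.41e-06 after castration. Apoa2 (-0.15 ± 0.073, adjusted p = 0.0762 and -0.16 ± 0.073, adjusted p = 0.0575) and Apoc3 (-0.16 ± 0.077, adjusted p = 0.0729 and -0.015 ± 0.077, adjusted p = 0.88) were no longer called (edgeR). Apob kept its call after ovariectomy (0.47 ± 0.073, adjusted p = 4.36e-07) and lost it after castration (0.070 ± 0.073, adjusted p = 0.411). Apoe rose in both (0.77 ± 0.13, adjusted p = 1.93e-06 and 0.34 ± 0.13, adjusted p = 0.0204). Apoc2, which is short and did not fall, was then called higher (1.07 ± 0.18, adjusted p = 1.28e-06 and 0.70 ± 0.18, adjusted p = 0.000861), as was Apoa1 after ovariectomy (0.54 ± 0.16, adjusted p = 0.0032). Mttp was called lower in both effects with the offset. Without the 7 libraries of high index the falls after ovariectomy were smaller but still called, at -1.20 ± 0.17, adjusted p = 5.69e-07 for Apoc1, -0.72 ± 0.10, adjusted p = 7.18e-07 for Apoa2 and -0.58 ± 0.13, adjusted p = 0.000451 for Apoc3. Length, library make-up, weeks of HFD, age at the end of the diet, cohort and GDX cannot be told apart in these comparisons. The 5 genes higher in XX all remained called with the offset, joined by Apoa2 (0.21 ± 0.052, adjusted p = 0.000819) and Apoc3 (0.17 ± 0.055, adjusted p = 0.0107).

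Among the GDX mice, the gonad a mouse had before surgery made no called difference to any of the 10 genes (edgeR, 0 called of 10, 1 at an unadjusted p under 0.05, Apoa4 with log2 fold change 0.76, 95% interval 0.058 to 1.47, adjusted p = 1), and 0.0908% of all genes were called. DESeq2's Wald test also called none. No difference of the gonadal effect between XX and XY intact mice passed the test (0% of all genes called by edgeR, with 0 of the 10 and 989 of all genes at an unadjusted p under 0.05). The chromosomal effect differed between GDX and intact mice for 2.12% of all genes and for none of the 10, with Apoa2 alone at an unadjusted p under 0.05 (log2 fold change 0.53, 95% interval 0.069 to 0.99, adjusted p = 0.252).

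Other genes of the pathway were read from 7 lists, chosen with results of these data known. Their median log2 fold changes ran from 0.048 to 0.18 in the chromosomal, -0.22 to 0.16 in the gonadal, -0.26 to 0.35 in the ovariectomy and -0.10 to 0.19 in the castration effect, beside the medians of all genes given above. Fold changes of these genes come from the model without the length offset, so those after GDX and in the gonadal effect are not adjusted for the trend with transcript length. The shares of all genes called higher and lower, which the counts in each list stand beside, were 21.9% and 14.8% in the chromosomal, 14.1% and 11.3% in the gonadal, 36% and 33.4% in the ovariectomy and 33.4% and 29.9% in the castration effect. Of 12 tested genes of the VLDL assembly and secretion machinery, 6 were higher and 2 lower in XX mice (all genes, 21.9% and 14.8%). Lpcat3, which enriches membranes and particles in arachidonoyl phospholipid, was higher (0.44 ± 0.078, adjusted p = 1.09e-05), and Sort1, a sorting receptor for apolipoprotein B, was lower (-1.16 ± 0.20, adjusted p = 7.78e-06). After ovariectomy 3 rose and 5 fell (all genes, 36% and 33.4%) and after castration 2 rose and 5 fell (33.4% and 29.9%), and Sar1b, the GTPase of the vesicles that carry the particle to the Golgi, fell most in both (-1.87 ± 0.23, adjusted p = 4.61e-09, and -1.5 ± 0.23, adjusted p = 5.6e-07). Sar1b has 1201 nucleotides, and genes of 1000 to 2000 nucleotides had medians of -0.33 and -0.22. A1cf, a cofactor of Apob mRNA editing, rose after ovariectomy (0.60 ± 0.14, adjusted p = 0.00025) and Tm6sf2, which aids lipidation of VLDL, after castration (0.70 ± 0.12, adjusted p = 4.39e-06). With ovaries 2 were higher and 2 lower than with testes (all genes, 14.1% and 11.3%), led by the lipase Ces1d (0.62 ± 0.15, adjusted p = 0.00223) and by the lipid droplet protein Cideb (-0.35 ± 0.10, adjusted p = 0.01).

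Of 10 lipoprotein receptor and clearance genes, 3 were higher and 0 lower in XX mice, the first close to the 21.9% of all genes. Lrp1, a remnant receptor with a long transcript, rose after ovariectomy (1.54 ± 0.17, adjusted p = 3.72e-10) and castration (1.02 ± 0.17, adjusted p = 1.67e-06) and was lower with ovaries (-0.46 ± 0.17, adjusted p = 0.0382), the directions of Apob. In those effects 4, 4 and 2 genes of the list were higher and 1, 0 and 3 lower, with Mylip, a ubiquitin ligase, lower after ovariectomy (-0.32 ± 0.12, adjusted p = 0.0163) and Vldlr higher with ovaries (0.98 ± 0.16, adjusted p = 1.35e-05). Of 6 genes of lipoprotein lipase and its regulators, 3 were higher and 1 lower in XX mice, Lpl itself being lower (-1.07 ± 0.19, adjusted p = 1.17e-05) and its inhibitor Angptl4 higher (0.31 ± 0.078, adjusted p = 0.00123). Macrophages express Lpl, and their markers were lower in XX mice too, but their part in the level of Lpl was not tested. Gpihbp1, which anchors lipase in capillaries, fell after ovariectomy (-1.21 ± 0.15, adjusted p = 5.15e-09) and castration (-0.76 ± 0.15, adjusted p = 3.59e-05), among 1 higher and 2 lower genes in the first and 0 and 3 in the second, and Lmf1, a chaperone of lipases, rose after ovariectomy (0.49 ± 0.086, adjusted p = 3.15e-06) and was lower with ovaries (-0.48 ± 0.086, adjusted p = 4.16e-05), alone of the 6. Gpihbp1 has 796 nucleotides, and genes of 500 to 1000 nucleotides had medians of -0.97 after ovariectomy and -0.72 after castration.

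Of 7 HDL remodelling genes, 2 were higher and 3 lower in XX mice (all genes, 21.9% and 14.8%). The cholesterol exporter Abcg1, also a macrophage gene, was lowest against XY (-1.71 ± 0.14, adjusted p = 9.47e-14), and the paraoxonase Pon3 was slightly higher (0.20 ± 0.040, adjusted p = 6.9e-05). The part of macrophages in the level of Abcg1 was not tested. After ovariectomy 2 rose, with Abca1, which lipidates apolipoprotein A-I, at 0.70 ± 0.12, adjusted p = 1.81e-06, and 2 fell, with Pon1 at -0.89 ± 0.15, adjusted p = 1.3e-06. Abca1 has 10262 nucleotides, and genes of 8000 nucleotides or more had a median of 0.62 in this effect. Pon1 has 1513 nucleotides, and genes of 1000 to 2000 nucleotides had a median of -0.33. After castration 2 rose (Abcg1, 0.76 ± 0.20, adjusted p = 0.00103) and 1 fell (Pon3, -0.29 ± 0.057, adjusted p = 2.74e-05), and Pon1 was higher (0.54 ± 0.15, adjusted p = 0.00631) and Abca1 lower (-0.33 ± 0.12, adjusted p = 0.0351) with ovaries. Of 6 tested other apolipoproteins, Apoc4, short like Apoc1, fell after ovariectomy (-1.87 ± 0.21, adjusted p = 3.87e-10) and castration (-1.41 ± 0.20, adjusted p = 1.68e-07), in the first together with 2 others while 2 rose, in the second alone. Clu was higher in XX mice (0.22 ± 0.062, adjusted p = 0.00443) with 2 others and none lower, rose after ovariectomy (0.43 ± 0.088, adjusted p = 4.09e-05) and was lower with ovaries (-0.40 ± 0.088, adjusted p = 0.00085), where Apom, which carries sphingosine phosphate in HDL, was higher (0.65 ± 0.11, adjusted p = 1.32e-05).

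Of 20 regulators of apolipoprotein transcription, 9 were higher and 2 lower in XX mice (all genes, 21.9% and 14.8%), with Ppara, the receptor that drives fatty acid oxidation, at 0.39 ± 0.088, adjusted p = 0.00042 and Nr1h3, the oxysterol receptor LXRα, at -0.52 ± 0.089, adjusted p = 6.77e-06. After ovariectomy 13 rose and 2 fell (all genes, 36% and 33.4%), Nr0b2 (the repressor SHP) rising most (1.14 ± 0.25, adjusted p = 0.000117) and Nr1h3 falling most (-0.88 ± 0.13, adjusted p = 8.56e-08), and after castration 7 rose and 3 fell, with Foxa3 lowest at -0.72 ± 0.10, adjusted p = 1.52e-07. With ovaries 1 was higher, Nr1h3 (0.53 ± 0.13, adjusted p = 0.00178), and 6 were lower, Nr0b2 most (-1.19 ± 0.25, adjusted p = 0.000505). Of 7 neighbours of both apolipoprotein clusters, 2 were higher and 1 lower in XX mice, with Sik3, beside Apoa1, at 0.24 ± 0.068, adjusted p = 0.00378 and Relb, near Apoe, at -0.69 ± 0.18, adjusted p = 0.00164. Clptm1 was the 1 called in the gonadal effect (-0.27 ± 0.10, adjusted p = 0.0387), Sik3 rose most after ovariectomy (0.53 ± 0.10, adjusted p = 6.96e-06) and Relb after castration (0.70 ± 0.26, adjusted p = 0.0158), while Pafah1b2 fell in both (-0.31 ± 0.051, adjusted p = 7.87e-07, and -0.30 ± 0.051, adjusted p = 2.92e-06), among 3 higher and 2 lower and 4 higher and 1 lower genes.

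The genes most like the 3 members with the widest range of group means were found by Pearson's r of deviations from the group means over the 48 mice, among 11110 genes, as a description without a test. For Apoa4 these were Cidec (r = 0.86), which enlarges lipid droplets, Morc4 (0.83), Elovl5 (0.83), a fatty acid elongase, and Plin2 (0.81), the coat protein of droplets in hepatocytes. The likeness was similar among the 24 intact mice (0.84 for Elovl5 and 0.85 for Cidec) and the 24 GDX mice (0.81 and 0.89). Cidec was 4.72 to 98.1 CPM (median 18.3) in XX and 0.997 to 27.0 CPM (median 5.31) in XY mice, and Plin2 289 to 872 CPM (median 539) and 201 to 519.6 CPM (median 346), with overlap for both. The chromosomal effect was called for all 4, at 1.70 for Cidec, 0.74 for Elovl5, 0.70 for Plin2 and 0.68 for Morc4 (edgeR, adjusted p 3.52e-07 to 0.000757), but this difference was not used in the likeness, which is within groups.

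**Figure D5:**
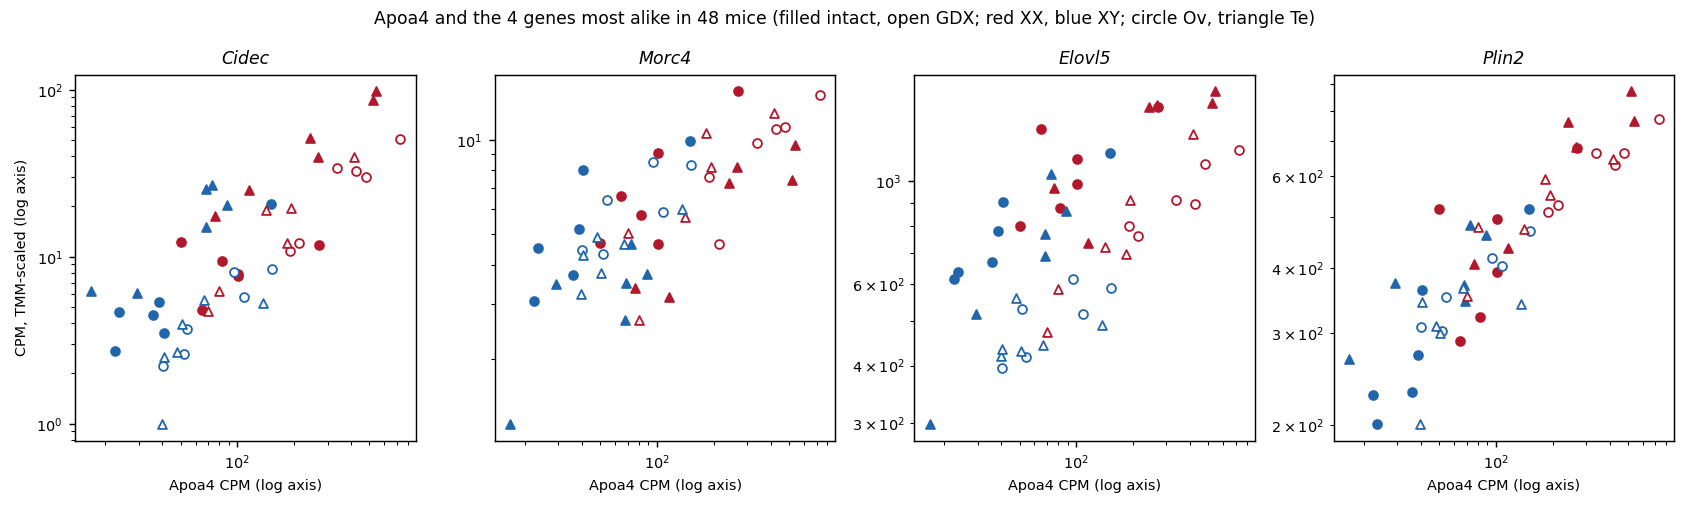
Levels of the 4 genes most like Apoa4 against Apoa4 (CPM, both axes log) in 48 mice; filled symbols are intact and open symbols GDX, red XX, blue XY, circles Ov, triangles Te. All 4 rise along Apoa4, and XX mice lie to the upper right (Cidec median 18.3 CPM in XX and 5.31 CPM in XY).

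For Apoc1 the most alike genes were Dctpp1 (r = 0.97), Gchfr (0.97), Emg1 (0.97) and Ube2b (0.96), with transcripts of 645 to 1792 nucleotides. For Apob they were F5 (0.93), Akap9 (0.92), Mgam (0.92) and Fat1 (0.92), with transcripts of 6488 to 14627 nucleotides. The genes most like Apoa4 (1815 nucleotides) had transcripts of 1720 to 4412 nucleotides.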

How the data were processed

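The authors used STAR (version 2.7.10a in the submitters' processing notes) to align liver RNA-seq reads to GRCm39 and to count them, and deposited raw counts per gene for 55414 Ensembl identifiers. The KAPA mRNA kit of the library protocol is named, but the strand setting, annotation release and trimming are not given in the sources used here. The 4 summary lines of unassigned reads (25.5 to 42.3% of all) were left out. A table of gene names gave symbols for 31020 identifiers. The members and lists were chosen with earlier results of these data known, and the named genes by a rule: all members, from each list and effect the called genes with the highest and lowest fold change, and the 4 genes most alike to the 3 members of widest range. The values of 2 genes that this rule names are not reported here.

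A model with 8 group means was fitted to all 48 mice with edgeR (version 4.0.16, under R version 4.3.3; TMM, filterByExpr, robust quasi-likelihood, Benjamini-Hochberg over 15414 genes). An SE is the absolute log2 fold change divided by the square root of F. The labels name each mouse with an identifier of its own, and 120 pairs of mice of 1 group differed by more than counting noise (chi-square per gene 7.74 or more). Depth was 13071874 to 20045141 reads, at which 3 reads equal 0.15 to 0.23 CPM without TMM scaling, for counting error only. Lengths come from the longest transcript in an NCBIM37 annotation, which covered 89.8% of tested genes (84.8% with GC content), and offsets were loess curves of span 0.3 per mouse. Alternatives were DESeq2 (version 1.42.0) and its size factors, library totals, other filters, only the arms compared, 47 mice, sva (version 3.50.0) with 1 surrogate variable, a fold above 1.5 and leaving out each mouse. Chosen after seeing the data were the length offset, the length and GC offset, the same genes without offset, and leaving out the 7 intact libraries of index above 1. The model was tested on simulated data. Permutations, promoters and plots used Python (version 3.11.15), numpy (version 2.4.6), pandas (version 2.3.3), scipy (version 1.17.1) and matplotlib (version 3.10.9).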

Additional observations from a re-analysis of the deposited data

Results flagged for a closer look

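Apoa4 had 1 mouse far above the other 5 of its group in 4 of the 8 groups. An XX Ov Intact mouse (replicate 3) had 269.8 CPM, the next 101 CPM. An XY Ov Intact mouse (replicate 2) had 150.4 CPM, the next 40.8 CPM. An XX Te GDX mouse (replicate 3) had 415 CPM, the next 193 CPM, and an XY Te GDX mouse (replicate 5) had 136 CPM, the next 66.7 CPM. The libraries of these Apoa4 mice had length indices of -0.68 to 0.29. Apoa5 was far above the others in 1 XX Ov Intact mouse (replicate 6), at 695 CPM with 562 CPM next, in a library with a length index of 1.80. Over the 24 intact mice Apoa5 did not move with the index past the test (r = 0.012, adjusted permutation p = 0.982). Mttp was lowest in 1 XX Ov GDX mouse (replicate 3), at 401 CPM with 436 CPM next, in a library with an index of -0.63. These are 6 of the 80 sets of a gene and a group, where Dixon's test at the 95% level gives about 1 in 20, or 4, by chance. With any 1 mouse left out, the chromosomal effect on Apoa4 stayed called (log2 fold change 1.68 to 1.97).

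Apob was the 1 gene of the 10 whose rise after castration differed from that after ovariectomy by a test of the difference (log2 fold change -0.63 ± 0.19 (SE), adjusted p = 0.0424, edgeR). Its call was lost in 23 of 48 fits without 1 mouse.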

How the results depend on the processing

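The chromosomal effect on the 10 genes kept its 5 calls with any 1 mouse left out, with library totals and without the 7 libraries of high length index. Only Apoa4 of them exceeded a 1.5-fold change at the test's threshold, so the count was 1 there, in all mice and within GDX mice alike. Within GDX mice library totals left 2 calls, Apoa4 and Mttp. Within intact mice the count was 1 with a 1.5-fold change, DESeq2 size factors, library totals, no filter, at least 10 counts in every mouse, the compared arms alone or without the 7 libraries, and 5 with a surrogate variable, which correlated with the length index at r = 0.92 over the 48 libraries as a description. In the gonadal effect the count was 0 with a 1.5-fold change or without the 7 libraries and 1 with the compared arms alone. For castration minus ovariectomy it was 0 with library totals, no filter or without the 7 libraries, and 2 with 47 mice, DESeq2's Wald test, the length offset or the length and GC offset.

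Over the fits that each dropped 1 mouse, the count ran from 2 to 5 in the gonadal, 5 to 5 in the chromosomal, 6 to 6 in the ovariectomy and 4 to 6 in the castration effect, 0 to 3 for castration minus ovariectomy, 1 to 4 within intact and 4 to 6 within GDX mice, and 0 to 0 in the other 3. The 5 gonadal calls came without XX Ov Intact replicate 3, and 4 without XY Te Intact replicate 3. Among values called in either of the fits compared, signs turned for Apoa1 after ovariectomy with the length offset (0.54) and the length and GC offset (0.36), for Apoa2 with the length and GC offset after ovariectomy (0.067) and castration (0.0055), and for Mttp after ovariectomy with library totals (0.17). Values called in neither fit turned too, among them Apoa1 after castration with the length offset (0.24) and, in the gonadal effect without the 7 libraries, Apoa2 (-0.22), Apoc1 (-0.28) and Apoc3 (-0.15). The offsets take out the length trend by construction, and the cause of the other changes was not tested. Of the fold changes of single genes recomputed under the settings listed, 1178 kept their side of the threshold and, where called, their direction, 52 lost a call and 35 gained one. No paired analysis was possible because each mouse carries an identifier of its own and the replicate numbers do not link mice between groups. The depth limits Apoc2, at 18 to 67 reads per library.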
